A study of Mus musculus with 16 samples.

Results

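The cytosolic ribosomal protein genes were taken by name from the deposited gene table: symbols that begin with Rpl or Rps and a digit, together with Rplp0, Rplp1, Rplp2 and Rpsa. Names that hold -ps or bp, and the Rps6k kinases, were left out. The rule found 93 of 57010 gene models. Of these, 46 encode proteins of the large subunit, 31 encode proteins of the small subunit, 9 are named paralogs and 7 are retrogenes or other copies. The filter on low counts kept 86 members among 14066 tested genes, and the 7 that did not pass were Rpl10l, Rpl39l, Rpl32l, Rpl6l, Rps23rg1, Rps3a2 and Rps3a3.

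RNA was measured in cardiomyocytes isolated from hearts of adult wild-type C57BL/6 mice, in 16 libraries. All mice had received an adeno-associated virus of serotype 9, either empty (vector) or carrying PRODH, the mitochondrial enzyme proline dehydrogenase, for cardiac overexpression from a promoter that the labels do not name. Surgery followed 3 weeks later and was either sham or constriction of the transverse aorta (TAC), a narrowing that overloads the left ventricle, and cells were taken 4 weeks after surgery. The 4 groups of 4 libraries were vector with sham surgery, vector with TAC, PRODH with sham surgery and PRODH with TAC. Age and sex are not in the labels, and they do not say whether each library was a mouse of its own, so every p-value here reflects how far these libraries spread.

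Total estimated counts ran from 15987580 to 22680212 per library, of which the group means of mitochondrial genes and their nuclear copies took 54.7% to 61.1%. Prodh stood at 10.4 to 11.48 CPM (counts scaled with TMM to a common library size) in vector sham and at 12.6 to 14.8 in PRODH sham (log2 fold change 0.33, edgeR adjusted p = 0.0517), and at 6.19 to 8.38 in vector TAC and 12.3 to 14.7 in PRODH TAC (log2 fold change 0.90). The labels do not say whether the transgene is the mouse or the human sequence, so whether the mouse Prodh row counts it was not tested. The 10 cardiomyocyte markers listed for this work summed to 31502 to 36715 CPM in the sham libraries and 24043 to 28045 CPM in the TAC libraries, which did not overlap. Markers of other cells also differed between groups: the 10 fibroblast markers summed to 174 to 245 CPM in vector sham and 1429 to 1603 in vector TAC, and to 217 to 225 in PRODH sham and 391.9 to 496 in PRODH TAC. The 10 endothelial markers summed to 346 to 427, 632 to 838, 367 to 398 and 517 to 603 CPM in the same order, and the 10 myeloid markers to 64.0 to 106, 213 to 246, 104 to 127 and 128 to 154. In the same order the mural list summed to 427 to 448, 524 to 580.5, 415 to 448 and 490.3 to 558 CPM and the red-cell list to 108 to 185, 223 to 300.2, 64.7 to 89.3 and 107 to 123. The lymphoid list summed to at most 2.28 CPM, and no marker of any list was at 0 in every library. In bulk RNA, fewer cells of a type and less RNA per cell cannot be told apart.

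Ribosomal proteins assemble with ribosomal RNA into the large and small subunits of the ribosome, in nearly equal numbers of each protein. Their messenger RNAs are abundant in all cells and many start with a pyrimidine tract that places their translation under the control of the kinase mTOR. In striated muscle, Rpl3l takes the place of the general large-subunit protein Rpl3 near the catalytic centre, and growing or injured muscle is known to shift back towards Rpl3. Pressure overload makes cardiomyocytes grow, and growing cells make more ribosomes.

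The start of the coding sequences of Rpl3 and Rpl3l is shown because the clearest change in the family lay between these paralogs. The sequences are coding bases 1 to 90 of transcripts Rpl3-201 and Rpl3l-202 in GENCODE M21, 5′ to 3′, with capitals at the 21 positions where the genes differ.
Rpl3: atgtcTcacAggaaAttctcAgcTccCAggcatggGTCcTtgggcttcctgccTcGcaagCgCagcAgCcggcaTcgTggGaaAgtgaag
Rpl3l: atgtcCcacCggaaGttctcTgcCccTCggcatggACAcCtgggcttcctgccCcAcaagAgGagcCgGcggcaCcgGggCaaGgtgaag
Over 1209 aligned coding bases the pair was 74.4% identical, and not 1 of the 1175 stretches of 50 bases in the Rpl3l coding sequence recurred in that of Rpl3. Rpl3l had whole counts in all 16 libraries, whereas Rpl3 had fractional counts in 13. The part of reads shared with similar sequences in the Rpl3 values was not tested. For Rps27rt, by contrast, all 206 stretches of 50 bases were also in Rps27, with which its coding sequence is identical. The split of counts between those genes is therefore uncertain. Rpl36al shared 87.9% of aligned coding bases with Rpl36a, Rps27l 76.1% with Rps27, Rpl22l1 70.2% with Rpl22 and Rpl7l1 59.9% with Rpl7, and none of these 4 paralogs shared a 50-base stretch with its partner.

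The bases around annotated transcription starts are shown for 3 members with a pyrimidine tract. Each window holds 15 bases on either side of the start in the RefSeq promoter table (GRCm38.p6), on the gene's strand, with the run of C and T in capitals.
Rplp2 (chr7:141447636-141447665, plus strand): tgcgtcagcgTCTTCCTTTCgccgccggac
Rpl13a (chr7:45128731-45128760, minus strand): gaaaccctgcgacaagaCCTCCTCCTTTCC
Rpl39 (chrX:37085208-37085237, minus strand): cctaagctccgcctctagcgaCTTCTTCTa
The run spans the annotated start in Rplp2 and begins after it in Rpl13a and Rpl39. The windows of Rpl10, Rps12, Rps13 and Rps16, which had large falls with PRODH after TAC, held no such run. The table held starts for 68 of the 93 members. An unbroken run of at least 8 letters that were each C or T lay in this window at 26 of 67 starts of subunit genes (38.8%), against 12% of all 32851 starts. In the 250 bases before the start, CCGGAAG on either strand was found at 28.4% of subunit gene starts against 6.91% of all starts, and TATAAA on either strand at 4.48% against 12.4%. These are matches of letters and no binding was measured.

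With TAC under the vector Rpl3 rose and Rpl3l fell, and with PRODH both differences were smaller. Rpl3 was 70.7, 74.7, 78.1 and 79.4 CPM in the vector sham libraries and 152, 159, 169 and 170.4 CPM in the vector TAC libraries. It was 67.7, 73.0, 72.4 and 88.0 CPM in PRODH sham and 81.6, 86.2, 78.6 and 90.8 CPM in PRODH TAC. The vector TAC libraries stood above all others, and the PRODH TAC libraries overlapped PRODH sham. Rpl3 rose 2.15-fold with TAC under the vector (log2 fold change 1.10 ± 0.08 SE, edgeR adjusted p = 3.28e-13). With PRODH it was lower after TAC (log2 fold change -0.95 ± 0.075 SE, adjusted p = 1.59e-11). Under PRODH the TAC difference was 0.16 (adjusted p = 0.0911), which passed the threshold when PRODH sham 4 was left out (0.29, adjusted p = 0.0028) or when vector sham 1 or vector sham 2 was left out (both 0.20). It also passed with the replicate block (0.17, adjusted p = 0.0493), with library size alone (0.55), with the length trend removed (0.36) and with scaling by the other members (0.52). The test of the difference between the TAC effects under the 2 viruses gave -0.94 ± 0.11 SE (adjusted p = 1.05e-07).

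Rpl3l moved the other way. It was 149.7, 173, 154 and 156 CPM in vector sham and 68.0, 67.0, 74.3 and 73.4 CPM in vector TAC. It was 138, 152, 168 and 173 CPM in PRODH sham and 85.0, 82.7, 88.4 and 102 CPM in PRODH TAC. Sham libraries of both viruses were high, PRODH TAC was intermediate and vector TAC lowest, with no overlap between these 3 levels. Rpl3l fell with TAC under the vector (log2 fold change -1.16 ± 0.08 SE, adjusted p = 2.64e-13) and under PRODH (-0.82 ± 0.08 SE, adjusted p = 3.17e-09). After TAC it was higher with PRODH, 1.27-fold (log2 fold change 0.34 ± 0.08 SE, adjusted p = 7.79e-04), and the test of the difference between the TAC effects gave 0.35 ± 0.11 SE (adjusted p = 0.019).

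**Figure D1:**
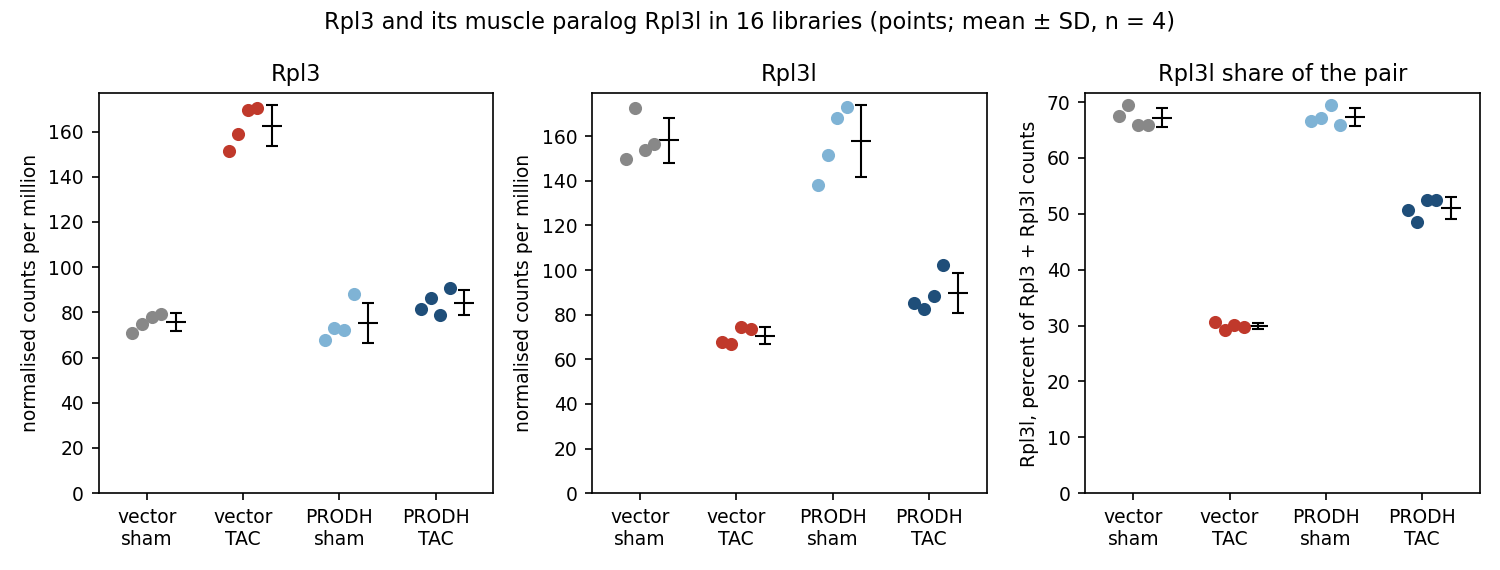
CPM of Rpl3 (left) and Rpl3l (middle) and the share of Rpl3l in the counts of both genes, each divided by gene length (right, percent). Each point is a library, bars are mean ± SD of 4 libraries. Vector TAC is at 163 ± 9.03 CPM of Rpl3 and 70.7 ± 3.73 of Rpl3l; the share is 67.2% and 67.3% in the sham groups, 29.9% in vector TAC and 51.0% in PRODH TAC.

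The ratio of the genes within a library does not depend on how libraries are scaled. With each gene's counts divided by its length, Rpl3l made up 67.2% ± 1.67 (SD, n = 4) of the sum of both genes in vector sham. It made up 67.3% ± 1.56 in PRODH sham. The share was 29.9% ± 0.552 in vector TAC and 51.0% ± 1.92 in PRODH TAC, so vector TAC was the group in which Rpl3 outnumbered Rpl3l in every library. On the log2 scale (0.5 added to each count) the ratio of Rpl3l to Rpl3 was 1.06 ± 0.11, 1.07 ± 0.10, -1.20 ± 0.04 and 0.09 ± 0.11 in vector sham, PRODH sham, vector TAC and PRODH TAC. It differed by -2.26 between TAC and sham under the vector, by -0.98 under PRODH and by 1.29 between PRODH and vector after TAC. Each of these 3 gave an exact permutation p of 0.0286, two-sided, the smallest that 4 against 4 libraries allow, and 0.1 after adjustment over 28 tests of 7 pairs. After sham the difference was 0.01 (exact permutation p = 0.914, adjusted 0.914). With TAC under the vector all 10 fibroblast, all 10 endothelial, all 10 myeloid and 5 of 5 red-cell markers also rose. Of 10 mural markers 6 rose and 2 fell. Of 10 cardiomyocyte markers 8 fell and 1 rose (median log2 fold change -0.39). Among all tested genes 30.3% rose and 26.2% fell. The part of these shifts in the Rpl3 and Rpl3l differences was not tested.

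Of the other paralogs, Rpl36al, a twin of the large-subunit gene Rpl36a, fell with TAC under both viruses. It was 36.8 to 44.0 CPM in vector sham and 29.5 to 34.5 in vector TAC (log2 fold change -0.38 ± 0.08 SE, edgeR adjusted p = 1.61e-04), and 34.4 to 44.7 in PRODH sham and 29.4 to 31.5 in PRODH TAC (-0.39 ± 0.08 SE, adjusted p = 3e-04). Rpl36a itself had differences of 0.04 and -0.01 in the same comparisons. With library size alone the Rpl36al differences were -0.03 and -0.01 and passed no threshold, while the ratio of Rpl36al to Rpl36a, which needs no scaling, differed by -0.41 and -0.38 with groups that did not overlap. Rpl7l1, a paralog of Rpl7, fell with TAC under the vector from 26.3 to 29.96 CPM to 20.2 to 21.9 (log2 fold change -0.39 ± 0.07 SE, adjusted p = 4.83e-05). Under library size alone its difference was -0.04, while its ratio to Rpl7 differed by -0.27 with groups that did not overlap. Under PRODH the fall of Rpl7l1, 0.20 on the log2 scale (adjusted p = 0.0339), was lost when any 1 of 10 libraries was left out. There the ratio differed by -0.12, with groups that overlapped.

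Rpl22l1 fell with TAC under PRODH (log2 fold change -0.36, edgeR adjusted p = 0.00133), a difference that was 0.03 with library size alone. Its ratio to Rpl22, an RNA-binding large-subunit protein, was lower in vector TAC than in vector sham by a mean of 0.24, with groups that did not overlap. The ratio of Rps4l to the X-linked Rps4x was higher by 0.38 with PRODH after TAC, again with no overlap, and Rps4x was the gene that fell (log2 fold change -0.45, adjusted p = 6.08e-06) while Rps4l differed by -0.07 (adjusted p = 0.659). Each of these ratios had an exact permutation p of 0.0286, the smallest possible, and 0.1 adjusted. No paralog ratio passed the adjusted threshold, which was out of reach unless most of the 28 tests were at that smallest p. For Rps27l, a p53 target, the ratio to Rps27 differed by at most 0.11 in the 4 comparisons. Rps27rt, whose coding sequence equals that of Rps27, ranged from 4.08 to 15.2 CPM over the libraries and passed in no comparison.

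TAC under the vector left most ribosomal protein genes near their sham level. Of 86 members, 5 were higher and 11 lower (edgeR adjusted p under 0.05), 5.81% and 12.8% against 30.3% and 26.2% of all tested genes. The median log2 fold change of members was -0.04, beside 0.02 over all genes. The geometric mean over the 77 genes of both subunits, with Rpl3 left out, was 123 ± 7.42 CPM in vector sham and 121 ± 3.54 in vector TAC. The direction depended on the scaling: with library size alone 68 members were higher and 1 lower, with a median of 0.31, and all genes then shifted to a median of 0.37. Of all tested genes 53.1% were higher and 8.52% lower on that scale. Relative to all genes the members' median was -0.06 both ways. With the trend of non-member genes with gene length removed, 23 members were higher and 8 lower, with a median of 0.07. In that fit 27.9% of all tested genes were higher and 29.6% lower. The count of 5 higher became 3 without vector sham 1, vector sham 4 or vector TAC 3, and 3 without both vector TAC 3 and vector TAC 4.

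Rpl12, Rpl39 and Rpl13a were also among the members that rose with TAC under the vector. Rpl12, part of the base of the ribosomal stalk, was 3.82 to 4.42 CPM in vector sham and 4.55 to 6.70 in vector TAC (log2 fold change 0.53 ± 0.15 SE, edgeR adjusted p = 0.00253), with fractional counts in all 16 libraries. Rpl39, a small protein of the peptide exit tunnel, was 55.4 to 70.7 CPM and 72.6 to 90.8 CPM (0.39 ± 0.09 SE, adjusted p = 3.46e-04). The 2 groups did not overlap for either gene. Rpl13a rose by 0.26 on the log2 scale (adjusted p = 0.0162). It did not pass without vector sham 1 (0.18), vector sham 4 (0.23) or vector TAC 3 (0.19).

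Among the falls, Rps2, a small-subunit protein near the messenger RNA entry channel, was 668, 799, 769 and 728 CPM in vector sham and 503, 507, 628 and 595 CPM in vector TAC. The groups did not overlap (log2 fold change -0.41 ± 0.09 SE, edgeR adjusted p = 2.02e-04), and the difference was -0.06 with library size alone. Rps3a1, a small-subunit protein, fell by 0.29 on the log2 scale (adjusted p = 5.11e-04) but stood at 0.06 above sham with library size alone. The largest fall was that of Rpl3l.

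After TAC, PRODH libraries held less ribosomal protein mRNA than vector libraries. Of 86 members 63 were lower and 1, Rpl3l, was higher (73.3% and 1.16%), against 24.6% and 18.5% of all tested genes. The median log2 fold change of members was -0.39, beside -0.04 over all genes, and 82 of the 86 values were negative. Of the large-subunit genes 39 of 46 fell (median -0.39) and of the small-subunit genes 23 of 31 fell (median -0.44), while Rpl3l was the paralog that passed among 7. In 63 members the PRODH TAC libraries all lay below the vector TAC libraries, which was so for 22.6% of all tested genes. Leaving out any 1 library gave 59 to 63 lower members. Library size alone gave 60, against 20.2% of all tested genes, with a median of -0.35.

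Gene length moved with this comparison. Among other genes at 30 CPM or more, those up to 1000 bases long had a median log2 fold change of -0.19, those above that and up to 2000 bases -0.09 and longer genes 0.07. Members of the same lengths stood at -0.41, -0.36 and -0.15. With the length trend of other genes removed, 53 members were still lower and 3 higher, against 21.8% and 21.7% of all tested genes. The members' median was then -0.23. Cell markers also moved: all 10 fibroblast, 9 of 10 endothelial, 9 of 10 myeloid, 5 of 10 mural and 5 of 5 red-cell markers were lower with PRODH after TAC, and 2 mural markers were higher. Of the 10 cardiomyocyte markers 4 were higher and 1 lower, and the markers' part in the result was not tested. Without vector TAC libraries 3 and 4, which had the lowest mt-Nd4 of all libraries (20080 and 22059 CPM against 25953 to 45803), 57 members were lower.

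**Figure D2:**
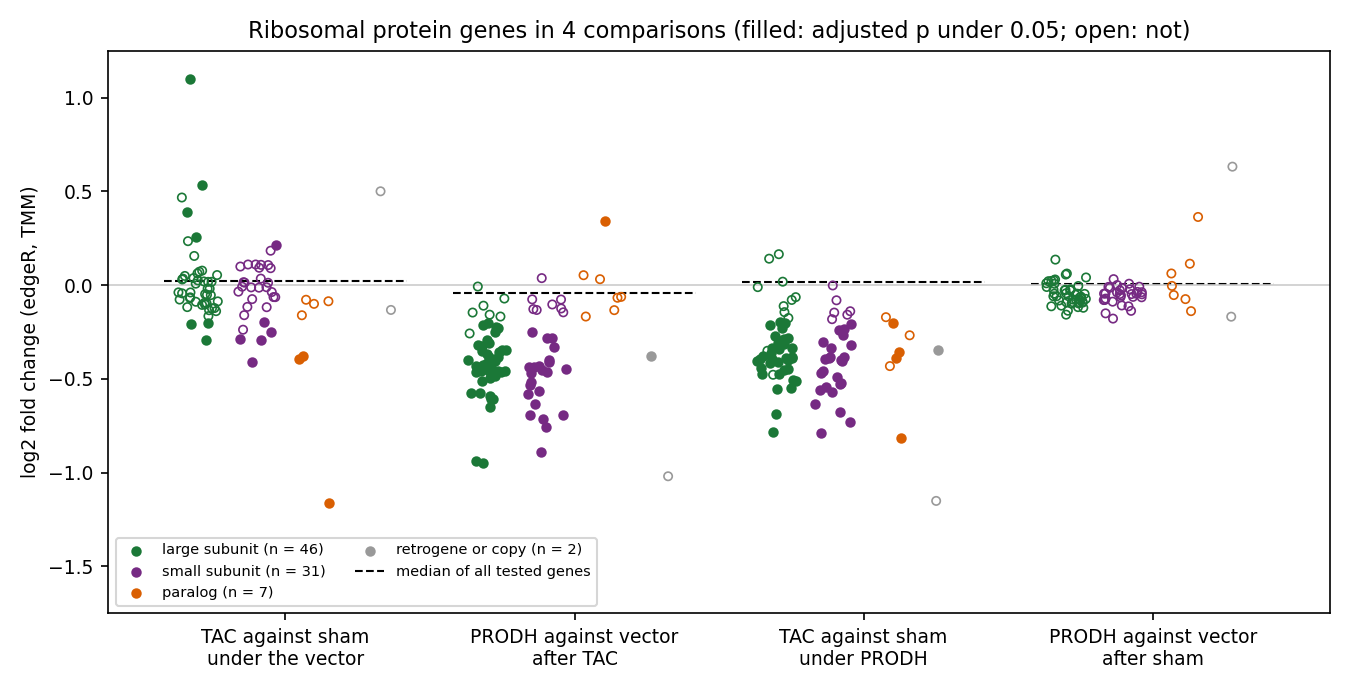
Log2 fold change (edgeR, TMM scaling) of the 86 tested members in 4 comparisons, by class; filled points passed an adjusted p under 0.05, and dashed lines mark the median of all tested genes. Most members lie below 0 in both comparisons that involve PRODH TAC, with medians of -0.39 and -0.38 (-0.35 and 0.0048 with library size alone), and near 0 with TAC under the vector (-0.04; 0.31 with library size alone) and after sham (-0.05).

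Among members that passed, the largest falls with PRODH after TAC, after Rpl3, were those of Rpl10, Rps13, Rps16 and Rps12. Rps13, a small-subunit protein, was 51.3, 77.2, 59.8 and 64.5 CPM in vector TAC and 32.5, 32.2, 36.7 and 34.7 CPM in PRODH TAC. Every PRODH TAC library was below every other library of the study (log2 fold change -0.89 ± 0.12 SE, edgeR adjusted p = 8.24e-06). Rps16, which reaches the decoding region of the small subunit, was 50.7, 51.0, 56.9 and 55.0 CPM against 29.3, 29.7, 31.2 and 36.0 CPM. Its groups were apart (log2 fold change -0.76 ± 0.10 SE, adjusted p = 2.1e-06). Rps12, also of the small subunit, was 57.02, 61.3, 48.0 and 44.1 CPM against 29.5, 31.0, 35.7 and 32.4 CPM (-0.71 ± 0.13 SE, adjusted p = 2.18e-04).

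Rpl10, a large-subunit protein added late in assembly, was 55.0, 61.2, 58.5 and 68.3 CPM in vector TAC and 33.6, 29.3, 27.2 and 36.9 CPM in PRODH TAC. The groups were apart (log2 fold change -0.94 ± 0.19 SE, edgeR adjusted p = 0.00152). In vector sham the value of 65.3 CPM in library 2 stood away from 35.3 to 38.9 CPM in the others. Rpl10, Rps12, Rps13 and Rps16 all had fractional counts in 15 or 16 libraries, and the part of reads shared with similar sequences in their values was not tested.

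The genes of the stalk proteins, which recruit translation factors, fell with PRODH after TAC, as did most members. The 77 subunit genes had a median log2 fold change of -0.41 and a lower quartile of -0.50. Rplp0 was 445, 434, 544 and 505 CPM in vector TAC and 338, 331, 362 and 401 CPM in PRODH TAC (log2 fold change -0.43 ± 0.09 SE, edgeR adjusted p = 4.33e-04). Rplp1 was 164, 174, 193 and 171 CPM against 109, 114, 121 and 127 CPM (-0.57 ± 0.09 SE, adjusted p = 1.24e-05). Rplp2, whose start is printed above, was 77.8, 82.3, 91.6 and 82.9 CPM against 49.5, 50.8, 55.7 and 63.5 CPM (-0.61 ± 0.10 SE, adjusted p = 4.95e-05). For all 3 genes the groups were apart, and under the vector TAC and sham differed by 0.02, 0.01 and -0.13, with no call.

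Rpl5 and Rpl11, which bind the 5S ribosomal RNA and the p53 regulator Mdm2, differed less. Rpl11 was 127 to 135 CPM in vector TAC and 108 to 117 CPM in PRODH TAC (log2 fold change -0.22 ± 0.07 SE, edgeR adjusted p = 0.00883), a difference of -0.061 with the length trend removed and not called without vector TAC libraries 3 and 4 (-0.21, adjusted p = 0.0513). Rpl5 differed by -0.17 ± 0.13 SE (adjusted p = 0.315). Rps6, the target of the S6 kinases, was 157 to 174 CPM in vector TAC and 115 to 127 CPM in PRODH TAC (-0.46 ± 0.08 SE, adjusted p = 4.34e-05). Rps27a, made as a fusion to ubiquitin, was 137 to 165 CPM and 128 to 137 CPM (-0.15, adjusted p = 0.0949). Fau, a ubiquitin-like fusion to a ribosomal protein that carries no Rpl or Rps name, fell by 0.69 on the log2 scale (adjusted p = 2.49e-04), and Rack1, a scaffold on the small subunit, fell by 0.43 (adjusted p = 1.58e-04).

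The members were also counted by whether an annotated start held a pyrimidine run. Of 27 tested members with a run, 21 were lower with PRODH after TAC (median log2 fold change -0.37), and of 37 without one, 25 were lower (median -0.38), beside 24.6% of all tested genes. This is a description with no test.

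**Figure D3:**
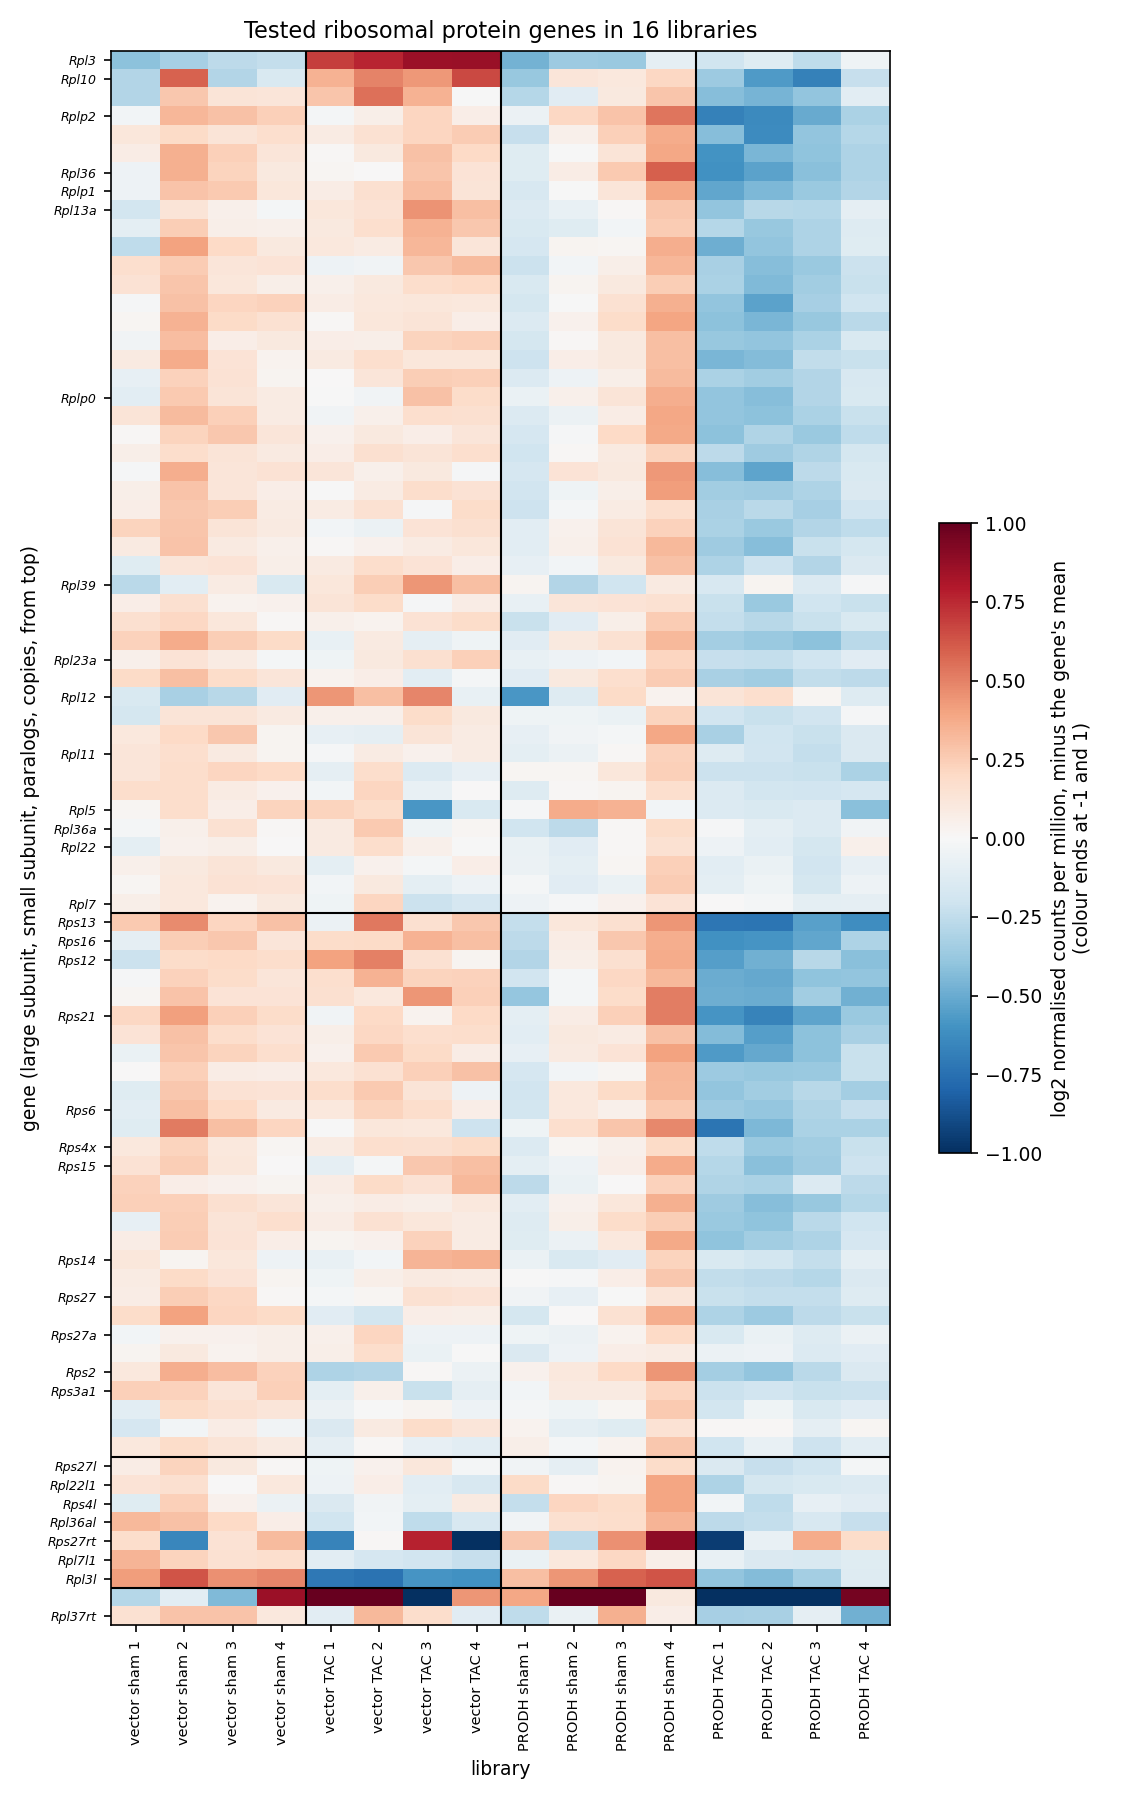
Log2 CPM of tested members (rows, grouped into large subunit, small subunit, paralogs and copies, with names for genes the text describes) in 16 libraries (columns), minus each gene's mean over all libraries; red is above and blue below the mean, and colours end at -1 and 1. The PRODH TAC columns are blue in most rows of both subunits (log2 fold change against vector TAC -0.95 to 0.04), Rpl3 is red in vector TAC, Rpl3l is blue in both TAC groups, and PRODH sham 4 is red in most rows.

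Under PRODH, TAC libraries also lay below sham libraries. With TMM scaling 65 of 86 members were lower (75.6%), against 17.8% of all tested genes, with a median of -0.38 beside 0.02 over all genes. With edgeR 0 members were higher, against 17.2% of all genes; 1 was higher at an unadjusted p under 0.05 and 0 with DESeq2. With library size alone 20 were higher and 7 lower, against 56% and 2.21% of all tested genes. The median was 0.0048, and all genes then had a median of 0.40. Relative to all genes the members' median was -0.39 in place of -0.40. With the length trend removed 24 were lower and 10 higher, against 14.6% and 14.5% of all tested genes, with a median of -0.09. In the main fit other genes of up to 1000 bases at 30 CPM or more had a median of -0.42. Members of that length stood at -0.38. Members above 1000 and up to 2000 bases stood at -0.33 against -0.29 for other genes, and longer members at -0.23 against -0.06. In the same comparison 9 of 10 fibroblast, 9 of 10 endothelial, 8 of 10 mural and 4 of 5 red-cell markers were higher, but only 1 of 10 myeloid markers. Of the 10 cardiomyocyte markers 5 were lower and 1 higher, and the markers' part in the result was not tested. Without PRODH sham 4, 48 members were lower and the median was -0.24 (-0.38 with all libraries).

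Among members that passed, the largest falls with TAC under PRODH, after Rpl3l, were those of Rps13, Rplp2, Rps21 and Rpl36. Rplp2 was 75.7, 91.2, 96.2 and 115 CPM in PRODH sham and 49.5, 50.8, 55.7 and 63.5 CPM in PRODH TAC, which did not overlap (log2 fold change -0.78 ± 0.10 SE, edgeR adjusted p = 3.63e-06). Rps13 fell by 0.79 on the log2 scale (adjusted p = 6.12e-05), Rps21, a small protein of the small subunit, by 0.73 (adjusted p = 2.02e-06) and Rpl36 of the large subunit by 0.69 (adjusted p = 3.05e-04). PRODH sham 4 held the highest value of its group for all 4 genes, at 72.6 CPM of Rps13, 95.8 of Rps21 and 130.1 of Rpl36. These comparisons share the PRODH TAC libraries with PRODH against vector after TAC.

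Sham libraries of both viruses were close. With edgeR 0 of 86 members were higher and 0 lower with PRODH after sham, at an adjusted p under 0.05, against 2.81% and 2.20% of all tested genes. At an unadjusted p under 0.05 the counts were also 0 and 0, and DESeq2 called 0. The median was -0.05, and the 77 subunit genes ranged from -0.18 to 0.14. With Rpl3 left out, their geometric mean was 123 ± 7.42 CPM in vector sham and 119 ± 14.8 in PRODH sham. The PRODH sham libraries 1 to 4 stood at 103, 113, 120.3 and 138 CPM.

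The test of whether TAC acted differently under the 2 viruses gave 41 of 86 members lower and 1, Rpl3l, higher (47.7% and 1.16%), against 15.8% and 10.9% of all tested genes. The median difference was -0.35, beside -0.04 over all genes. The largest among members that passed, after Rpl10 and Rpl3, were those of Rps16 (-0.74 ± 0.15 SE, edgeR adjusted p = 4.83e-04), Rps13 (-0.71 ± 0.17 SE, adjusted p = 0.00447) and Rps12 (-0.70 ± 0.18 SE, adjusted p = 0.00819). Rpl10 gave -0.95 ± 0.27 SE (adjusted p = 0.0213), and did not pass without vector sham 1, vector sham 4, PRODH sham 2, PRODH sham 3 or PRODH sham 4. The count of 41 lower members became 23 without vector sham 1, 24 without vector sham 4, 26 without PRODH sham 3, 22 without PRODH sham 4 and 24 without vector TAC libraries 3 and 4. With the length trend removed it was 30, against 14.1% of all tested genes. In the same test 10 of 10 fibroblast, 10 of 10 myeloid and 6 of 10 endothelial markers were lower. Mural markers were mixed, with 3 of 10 higher and 2 lower, and 0 of 5 red-cell markers were higher or lower. Of the 10 cardiomyocyte markers 4 were higher and 1 lower, and the markers' part in the result was not tested.

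**Figure D4:**
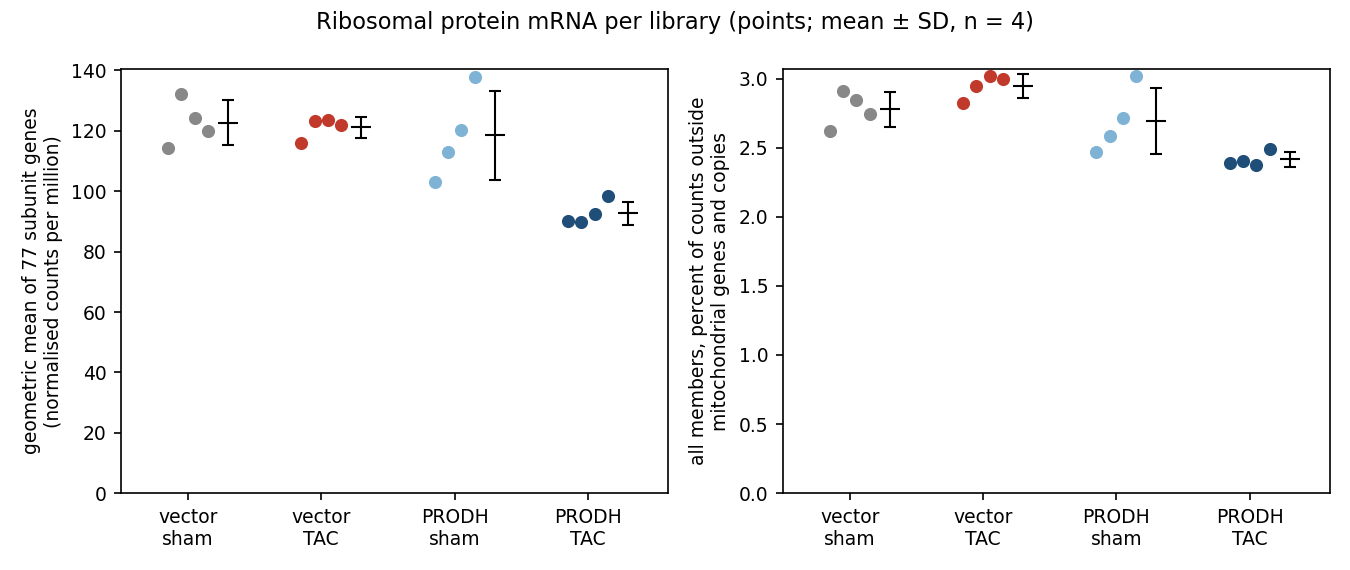
Geometric mean of the 77 subunit genes with Rpl3 left out (left, CPM) in each library. The right side shows all members as percent of the counts outside mitochondrial genes and their copies. Points are libraries, bars are mean ± SD of 4. PRODH TAC is lowest on the left (89.9 to 98.3 CPM) and on the right overlaps only the lowest PRODH sham library (2.38% to 2.49% against 2.47%), and PRODH sham spreads most (103 to 138 CPM).

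As a share of counts outside mitochondrial genes and their copies, which uses no scaling factor, members took 2.78% ± 0.126 (SD, n = 4) in vector sham and 2.69% ± 0.237 in PRODH sham, and 2.95% ± 0.0878 in vector TAC and 2.42% ± 0.0518 in PRODH TAC. All PRODH TAC libraries (2.38% to 2.49%) were below all vector TAC libraries (2.82% to 3.02%), whereas 1 PRODH sham library, at 2.47%, lay within the PRODH TAC range. The geometric mean of the 77 subunit genes, with Rpl3 left out, was 116 to 124 CPM in vector TAC and 89.9 to 98.3 CPM in PRODH TAC.

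**Figure D5:**
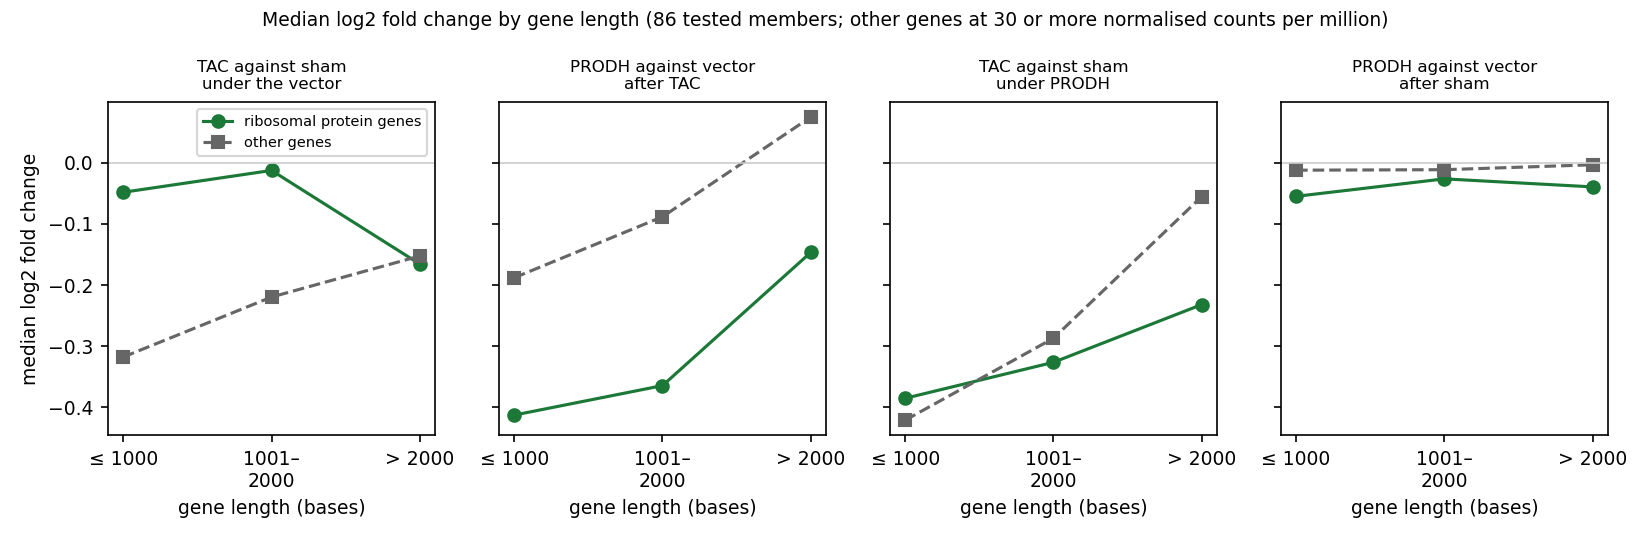
Median log2 fold change of members (circles, all 86 tested) and of other genes at 30 or more CPM (squares) in 3 classes of gene length, in 4 comparisons. After TAC, members lie below other genes of their length (-0.41 against -0.19 up to 1000 bases); in that class members are at -0.38 against -0.42 with TAC under PRODH and at -0.05 against -0.32 with TAC under the vector.

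Genes that work with the ribosome were taken from lists chosen by function. Of 19 translation factors and related genes with pyrimidine-tract messages, 13 were lower with PRODH after TAC (68.4% against 24.6% of all tested genes, median log2 fold change -0.33), and 10 of 19 without vector TAC libraries 3 and 4. Eef1a1, which delivers aminoacyl-tRNA, was 280.0 ± 26.7 CPM in vector sham, 769 ± 62.4 in vector TAC and 403 ± 24.1 in PRODH TAC, with log2 fold changes of 1.46 and -0.93 (edgeR adjusted p = 9.58e-16 and 3.97e-11). Pabpc1, which binds poly(A) tails, gave 0.96 and -0.71 in the same comparisons (adjusted p = 1.96e-12 and 1.59e-09), and Eif3h, an initiation factor subunit, 0.43 and -0.53. Eef1b2, which recharges Eef1a1, fell by 0.61 on the log2 scale with PRODH after TAC and differed by -0.03 with TAC under the vector. Over the list, TAC under the vector gave 5 higher and 4 lower genes (26.3% and 21.1% against 30.3% and 26.2% of all tested genes, so near that background). With library size alone 15 of the 19 were higher and 0 lower, beside 53.1% and 8.52% of all tested genes.

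Of 62 ribosome assembly genes, 21 were lower with TAC under the vector (33.9% against 26.2% of all tested genes, median -0.16), and 15 without vector TAC libraries 3 and 4. With library size alone 24 of the 62 were higher and 3 lower, beside 53.1% and 8.52% of all tested genes. Emg1, a ribosomal RNA methyltransferase, fell by 0.72 on the log2 scale (edgeR adjusted p = 1.12e-08), Dkc1, the pseudouridine synthase, by 0.70 (adjusted p = 3.16e-06) and Brix1, a large-subunit assembly factor, by 0.66 (adjusted p = 8.55e-06). With PRODH after TAC 6 were higher and 5 lower (9.68% and 8.06%, below the 18.5% and 24.6% of all tested genes, median -0.02), and 1 higher and 5 lower without vector TAC libraries 3 and 4. Eif6, which keeps the subunits apart, fell by 0.46 (adjusted p = 1.15e-04), Nhp2 of the same complex as Dkc1 by 0.47 (adjusted p = 1.64e-04), and the kinase Riok2 rose by 0.48 (adjusted p = 4.81e-04), which did not pass without those 2 libraries (0.25, adjusted p = 0.0596).

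Of 16 tested genes of RNA polymerase I and Myc, 3 were higher and 5 lower with TAC under the vector (7 and 2 with library size alone), and 3 higher and 4 lower with PRODH after TAC (1 and 2 without vector TAC libraries 3 and 4). These shares, 18.8% and 31.2% with TAC under the vector and 18.8% and 25% with PRODH after TAC, stand beside 30.3% and 26.2%, and 18.5% and 24.6%, of all tested genes. With library size alone 53.1% of all tested genes were higher and 8.52% lower with TAC under the vector. Myc, the growth regulator, rose by 1.248 on the log2 scale with TAC under the vector (edgeR adjusted p = 2.16e-06) and was 0.91 lower with PRODH after TAC (log2 fold change -0.91, adjusted p = 1.09e-04), at 1.249 ± 0.139, 2.97 ± 0.370 and 1.57 ± 0.308 CPM in vector sham, vector TAC and PRODH TAC. Polr1a, the largest polymerase I subunit, went the other way, by -0.65 and 0.52 (adjusted p = 8.6e-06 and 2.63e-04). Taf1a, of the polymerase I initiation factor, fell by 0.74 with TAC under the vector (adjusted p = 1.32e-05) and Polr1d, a subunit shared with polymerase III, by 0.36 with PRODH after TAC (adjusted p = 2.6e-04).

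Of 21 tested genes of mTOR and S6 kinase signalling, 6 were higher and 6 lower with TAC under the vector, 13 and 1 with library size alone, and 4 higher and 3 lower with PRODH after TAC. The shares were 28.6% and 28.6% with TAC under the vector and 19% and 14.3% with PRODH after TAC, near or below those of all tested genes. On the scale of library size alone 53.1% of all tested genes were higher and 8.52% lower with TAC under the vector. Eif4ebp1, the translation repressor that mTOR inactivates, was 17.6 ± 2.71 CPM in vector sham, 38.0 ± 1.85 in vector TAC and 24.0 ± 2.37 in PRODH TAC, with log2 fold changes of 1.10 and -0.66 (edgeR adjusted p = 4.85e-11 and 8.79e-07). Ddit4, an mTOR inhibitor induced by stress, gave 0.45 and -0.54 (adjusted p = 3.86e-06 and 3.34e-07). Rps6ka5, a nuclear kinase whose name does not mark a ribosomal protein, gave -0.85 and 1.00 (adjusted p = 4.44e-06 and 2.92e-07).

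Per kilobase of deposited gene length, the level of the 77 subunit genes had a median of 162 CPM per kb over all libraries, with quartiles of 94.96 and 231, and 54 of 77 lay within 2-fold of the median. Among the highest levels per kb were those of Rps2 at 657, Rps15 at 491, Rpl23a at 479 and Rps14 at 451 CPM per kb. The lowest among tested members were Rpl12 at 3.92, Rpl5 at 4.90, Rps4l at 6.24, Rpl7l1 at 9.15 and Rpl37rt at 10.8 CPM per kb. Rpl12 and Rpl5 encode proteins present in each ribosome, and both had fractional counts in all 16 libraries. This was so for 37 members, and 11 had no fractional count. Rpl3l ranked 60 and Rpl3 65 of 93 members per kb.

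The 7 members that were not tested were at or near 0. Rpl10l, a testis paralog of Rpl10, and Rpl32l had no count in any library. Rpl39l, a paralog of Rpl39, reached 3 counts at most, Rpl6l 1.12, Rps23rg1 5.08, Rps3a3 5.31 and Rps3a2 5.58. Of the copies that were tested, Rpl37rt was lower with PRODH after TAC (log2 fold change -0.38, edgeR adjusted p = 0.0141), and Rps12l1 spread from 1.02 to 10 CPM within vector TAC alone and passed in no comparison.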

How the data were processed

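The authors deposited estimated counts (expected counts, which need not be whole) per gene for 16 libraries, with a gene length in bases for each gene; the values are not normalized. TRIzol extraction, DNase I and a SMARTER mRNA-Seq kit were used, per the labels' protocols. The aligner, counter and genome build were not given in the sources used here. Of 57010 gene models 9538 have fractional counts.

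Counts were rounded and tested with edgeR 4.0.16 and limma 3.58.1 in R 4.3.3 (tables read by data.table, version 1.17.8): TMM, filterByExpr (minimum count 10, minimum total 15), a robust quasi-likelihood fit of 4 groups over 16 libraries with no block, and Benjamini-Hochberg adjustment over 14066 genes (threshold 0.05). Fold changes use a prior count of 0.125. DESeq2 1.42.0 was an alternative. The fit was tested on simulated data. CPM are counts scaled by TMM, and paralog ratios used an exact permutation test over libraries. Between libraries of a group the chi-square per gene was 2.87 to 30.7, so none was a repeat reading of another library. This value cannot show whether 2 libraries came from 1 mouse. It was 3.06 between vector TAC 3 and 4, against 9.63 to 30.7 for the other vector TAC pairs.

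Named genes were Rpl3, Rpl3l, both genes of measured paralog pairs, the 5 largest called rises and falls per comparison, the 5 highest and lowest members per kb, untested members, up to 3 genes per pathway list with the smallest p, and Prodh. Rplp0, Rplp1, Rpl11, Rps6 and Rps27a were added for their role after their values were seen. Some genes that the rule names are not reported here, though all counts and medians include them. Members and lists were chosen with earlier results of these data known.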

Additional observations from a re-analysis of the deposited data

Results flagged for a closer look

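Among the genes named here, 220 groups of 4 libraries were examined for a library that stood apart, and 10 (4.55%) had one; chance gives about 1 in 20. In vector sham, Rpl10 was 65.3 CPM in library 2 (35.3 to 38.9 in the others), Rps3a1 297 in library 3 (321 to 324), Rps12 37.2 in library 1 (49.0 to 49.8), Dkc1 8.81 in library 3 and Rps6ka5 4.82 in library 2. In vector TAC, Emg1 was 23.8 CPM in library 2 and Ddit4 43.4 in library 3. In PRODH TAC library 4, Rps27 was 83.3 CPM (77.1 to 78.1 in the others) and Rpl5 7.41. In PRODH sham, Rpl23a was 309 CPM in library 4 (253 to 263).

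The effect of TAC differed between the viruses, by the interaction test of edgeR, in these named members. The difference (PRODH minus vector, log2) was -0.95 for Rpl10 (adjusted p = 0.0213), -0.94 for Rpl3 (1.05e-07), -0.37 for Rpl39 (0.0243), 0.35 for Rpl3l (0.019), -0.46 for Rplp0 (0.00955), -0.51 for Rplp1 (0.00401), -0.70 for Rps12 (0.00819), -0.71 for Rps13 (0.00447), -0.74 for Rps16 (4.83e-04), -0.37 for Rps4x (0.00596) and -0.40 for Rps6 (0.0118), as adjusted p-values. Rpl39 did not pass in 8 of the 16 fits that left out 1 library, and was -0.26 without PRODH sham 4. Rps6 did not pass without vector sham 1 (edgeR adjusted p = 0.0753), vector sham 4 (0.0568) or PRODH sham 4 (0.0705). Rplp0 did not pass without vector sham 1 (0.0502) or without vector TAC libraries 3 and 4 (0.0922). The fits in which Rpl10 did not pass include those named above.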

How the results depend on the processing

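Under DESeq2 size factors, the DESeq2 test, tables without mitochondrial genes or with pseudogene counts added, both other count filters and fits of only the groups compared, member counts stayed within 1.5 times and medians within the spread of libraries. Library size alone gave, with TAC under the vector, 68 members higher, 1 lower and a median of 0.31 (Rps3a1 at 0.062), and with TAC under PRODH 20 higher, 7 lower and a median of 0.0048 (Rpl22l1 at 0.026, Rpl7l1 at 0.18, Rps27 at 0.17, Rps4x at 0.048, Rpl11 at 0.18). Of all tested genes 53.1% were then higher and 8.52% lower under the vector, and 56% and 2.21% under PRODH. Removing the length trend, chosen after seeing the data, gave 23 members higher and a median of 0.068 with TAC under the vector, 3 higher and -0.23 with PRODH after TAC, 10 higher, 24 lower and -0.093 with TAC under PRODH (Rps27 at 0.18, Rpl11 at 0.065), and 2 higher and -0.19 for the interaction. Of all tested genes, in the same order, 27.9% were higher, 21.7% higher, 14.5% higher and 14.6% lower, and 14.2% higher. Without vector TAC libraries 3 and 4, also chosen after seeing the data, 3 members were higher with TAC under the vector and 24 lower in the interaction. Scaling by the other members, likewise chosen afterwards, turned Rpl39 (0.040), Rps27 (0.11), Rpl11 (0.16) and Polr1d (0.030) with PRODH after TAC and Rpl7l1 (0.14), Rps27 (0.14), Rps4x (0.017) and Rpl11 (0.15) with TAC under PRODH, a scale that holds the mean of the members still. On that scale Rps4x, Rack1, Rplp0, Rps6, Eif6, Nhp2 and Ddit4 kept their sign with PRODH after TAC but did not pass (edgeR adjusted p from 0.158 to 0.599). With TAC under PRODH the same held for Rpl22l1, Rpl36al, Rplp0, Rplp1 and Rps6. In the interaction it held for Rpl39, Rps4x, Rps12, Rplp0, Rplp1 and Rps6. Leaving out each library gave 3 to 7 higher with TAC under the vector, 0 to 1 higher and a median of -0.41 to -0.24 with TAC under PRODH, and 22 to 45 lower and a median of -0.36 to -0.21 for the interaction. With a replicate block, 1 member (Rpl3, 0.17) was higher with TAC under PRODH,with an adjusted p of 0.0493. Over 24 same-numbered pairs of libraries, r ran from -0.11 to 0.16, and 8 correlated best with their own number. The 3 pairs with r over 0.1 were all of replicate 1 (0.16, 0.14 and 0.12), as were most of those 8. Whether replicate 1 libraries were handled together is not known. The cause of these shifts was not tested.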
